A study of Arabidopsis thaliana with 45 samples.

Results

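The type-A response regulators of Arabidopsis thaliana are short proteins that consist of little more than the phosphate-receiving domain of a phosphorelay. Cytokinin, a plant hormone that promotes cell division and delays leaf yellowing, binds histidine kinase receptors, and the phosphate passes through shuttle proteins to the type-B regulators, which bind DNA and switch on the type-A genes. The type-A proteins in turn dampen the pathway, so their transcripts are widely used as a readout of cytokinin signalling. The 9 genes ARR3 (AT1G59940), ARR4 (AT1G10470), ARR5 (AT3G48100), ARR6 (AT5G62920), ARR7 (AT1G19050), ARR8 (AT2G41310), ARR9 (AT3G57040), ARR15 (AT1G74890) and ARR16 (AT2G40670) were taken by locus from the 37336 genes of the deposited table. ARR17, the remaining type-A gene of the family, was outside the set and reached at most 32.5 normalised reads in any library.

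The data come from RNA sequencing of the first true leaves, in 45 libraries that form 15 groups of 3. Col-0, the common laboratory strain, was grown in an 8 h light and 16 h dark cycle, labelled short days, and sampled at D13, D18, D23, D30 and D40. The line labelled tcx5/6, grown in a 16 h light and 8 h dark cycle, labelled long days, was sampled at D13, D18, D23, D30 and D45. Col-0 under the same long days was sampled at D13, D18, D23, D30 and D40 and was the control of both other series, so the comparisons by day length and by line share those libraries. The proteins TCX5 and TCX6 belong to the cell-cycle repressor complex DREAM, and the labels give no allele for the line. Days are in a unit written DAG, which the labels do not spell out. The labels do not say what the replicates were (plants, pools or repeated libraries), so the p-values measure the spread between libraries, which may be technical.

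Values are normalised read counts, that is reads per gene divided by a size factor for each library, and groups are given as mean ± SD with n = 3 libraries. Depth was a median of 25596039 reads in genes (16824317 at the lowest and 40252818 at the highest library). TCX5 was at 231 to 522 in libraries labelled tcx5/6 and at 271 to 525 in Col-0 long days, while TCX6 was at 0 to 142 and at 15.7 to 418 in those series, so neither gene sets the line apart. In libraries labelled short days TCX5 was at 54.1 to 216 and TCX6 at 219 to 2200.0, and the labels are therefore quoted as labels throughout. The libraries labelled short days differed from each other by 4.17 to 22.5 times counting noise among genes over 1000 reads, and by 3.89 to 19.1 times among genes of 20 to 100 reads. In Col-0 long days the same ratios were 14.3 to 746 and 3.08 to 16.3, so the spread of the short-day triplicates did not grow with expression. The fits were therefore repeated with each short-day group as 1 library, and calls that this ended are named. In the tcx5/6 library D18 replicate 2, 37% of genes with a mean of 20 to 50 normalised reads over both other libraries were at 0. That share was 8.07 to 18.4% at D40 under short days, 3.96 to 5.48% at D40 in Col-0 long days, and 0 to 7.37% in the remaining libraries, so a 0 for a low gene carries little weight in those libraries.

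The leaf label was checked against marker genes. All 5 mesophyll markers were expressed at D13, with summed levels of 955093 to 981972 in libraries labelled short days, 1066787 to 1163879 in those labelled tcx5/6 and 1511925 to 1574802 in Col-0 long days. All 5 fell with age in each series, to sums of 100232 to 106541 at D40 under short days, 43788 to 147176 at D45 in tcx5/6 and 6609 to 44919.8 at D40 in Col-0 long days. All 4 senescence markers rose in each series, to sums of 201167 to 206079, 2676 to 8417 and 159018 to 321299 on those same last days. The 5 vascular markers summed to 6029 to 6584 at D40 and 5606 to 5719 at D13 under short days, and to 6692 to 10110.3 at D45 and 6516 to 6848 at D13 in tcx5/6. In Col-0 long days they summed to 5721 to 10594 at D40 and 12696 to 15149.5 at D13. Gene by gene, 3 of the 5 fell and 1 rose under short days, 3 fell and 2 rose in tcx5/6, and 4 fell and 1 rose in Col-0 long days, with median log2 changes of -2.08, -2.15 and -3.04. The 4 shoot meristem markers summed to at most 18.7 in any library, with WUS at 0 throughout. The 4 root markers summed to 194 to 629 in libraries labelled short days, 515 to 1305 in those labelled tcx5/6 and 289 to 684 in Col-0 long days, with PLT1 at 0 throughout and RHD6 at 0 outside D40 under short days. At D13 that sum was 1250.5 to 1305 in tcx5/6 and 438 to 574 in Col-0 long days, and both root markers tested, SCR and WOX5, were called higher in tcx5/6. The 4 flower markers summed to 9.29 to 223 in libraries labelled short days. Their sums were 9.11 to 61.3 in libraries labelled tcx5/6 and 16.7 to 180 in Col-0 long days. In bulk leaf RNA, fewer cells of a type and less RNA per cell cannot be told apart, and the part of these marker changes in the results below was not tested.

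The upstream sequences are shown because the type-A genes are known direct targets of the type-B regulators, whose core binding sequence is AGATT or AGATC. The 300 bases before the annotated start were read from the RefSeq annotation of TAIR10.1 for ARR5 at chr3:17760951-17761250 (minus strand), for ARR7 at chr1:6579315-6579614 (minus strand) and for ARR16 at chr2:16969373-16969672 (plus strand). These stand for the gene that was high again in the oldest leaves under short days, the gene with the most matches, and the gene that rose with age in every series. The sources used here do not name the build on which reads were counted, and positions are used for nothing else. Each sequence runs 5′ to 3′ towards its gene, and capitals mark AGATT and AGATC or their reverse complements AATCT and GATCT.
ARR5: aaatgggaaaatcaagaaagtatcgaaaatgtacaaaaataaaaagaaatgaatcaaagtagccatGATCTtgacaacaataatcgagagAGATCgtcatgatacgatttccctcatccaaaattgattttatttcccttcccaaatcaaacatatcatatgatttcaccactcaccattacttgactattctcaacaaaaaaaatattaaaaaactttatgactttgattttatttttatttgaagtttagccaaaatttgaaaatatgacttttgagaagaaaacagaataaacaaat
ARR7: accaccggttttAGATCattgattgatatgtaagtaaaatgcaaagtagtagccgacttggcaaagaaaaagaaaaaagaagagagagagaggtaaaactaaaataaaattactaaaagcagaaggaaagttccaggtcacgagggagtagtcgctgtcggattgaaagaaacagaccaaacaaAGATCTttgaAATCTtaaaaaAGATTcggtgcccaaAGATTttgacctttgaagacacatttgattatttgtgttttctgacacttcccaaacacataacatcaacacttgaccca
ARR16: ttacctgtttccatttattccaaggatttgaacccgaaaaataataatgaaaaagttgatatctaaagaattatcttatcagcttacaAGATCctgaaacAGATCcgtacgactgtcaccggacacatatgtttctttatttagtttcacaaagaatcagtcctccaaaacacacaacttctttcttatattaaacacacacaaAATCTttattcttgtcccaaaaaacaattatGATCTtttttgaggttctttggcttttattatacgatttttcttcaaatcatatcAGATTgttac
ARR7 held 6 matches (3 of each motif, of which 2 share the palindrome AGATCT), ARR16 held 5 and ARR5 held 2. In the other members the windows held 4 in ARR15, 3 in ARR6, 2 in ARR9, and 1 each in ARR3, ARR4 and ARR8. Among 27443 promoters of protein-coding genes cut in the same way, 70.7% held AGATT, 31.7% held AGATC and 79.9% held either, with a median of 2 matches. As many as 6 occurred in 1.6% of these promoters, as many as 5 in 4.78% and as many as 4 in 11.5%. The genes with the most matches, ARR7, ARR16 and ARR15, moved in opposite directions with age, as described next.

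Of the 9 members, 8 reached 10 normalised reads in at least 3 libraries and were tested, and ARR3 did not. ARR3, the closest relative of ARR4 within the set (83.7% of aligned coding bases identical), had 74 reads in all 45 libraries together. It was at 0 in all 15 libraries labelled tcx5/6. Under short days at D40 it was at 27.9, 0 and 19, and in no Col-0 long-day library did it pass 5.14. The longest identical stretch shared by any 2 members was 41 bases, between ARR3 and ARR4 and between ARR8 and ARR9.

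With age most members fell in every series. ARR16 did not fall in any of them, and ARR5 did not fall under short days. Between D13 and the last day, the median log2 change of the 8 members tested was -2.89 in libraries labelled short days, -2.48 in those labelled tcx5/6 and -2.83 in Col-0 long days, where the medians of all 23493 genes tested were -0.06, -0.03 and -0.01. Under short days 6 members fell and 1 rose by limma (adjusted p under 0.05), against 36.5% of all genes that fell and 34.0% that rose (70.5% in either direction). In tcx5/6 and in Col-0 long days 7 fell and 1 rose in each. The share of all genes that fell was 33.9% and 35.8% in those series, the share that rose was 30.1% and 34.0%, and the 2 together came to 64.0% and 69.8%. Most genes were called with age, so the number of members called is unremarkable, while their direction was mostly down where all genes were split about evenly. ARR4, ARR6, ARR7, ARR8, ARR9 and ARR15 fell in each of the 3 series, and ARR16 rose in each. ARR5 fell in tcx5/6 and in Col-0 long days and did not pass the test under short days.

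**Figure D1:**
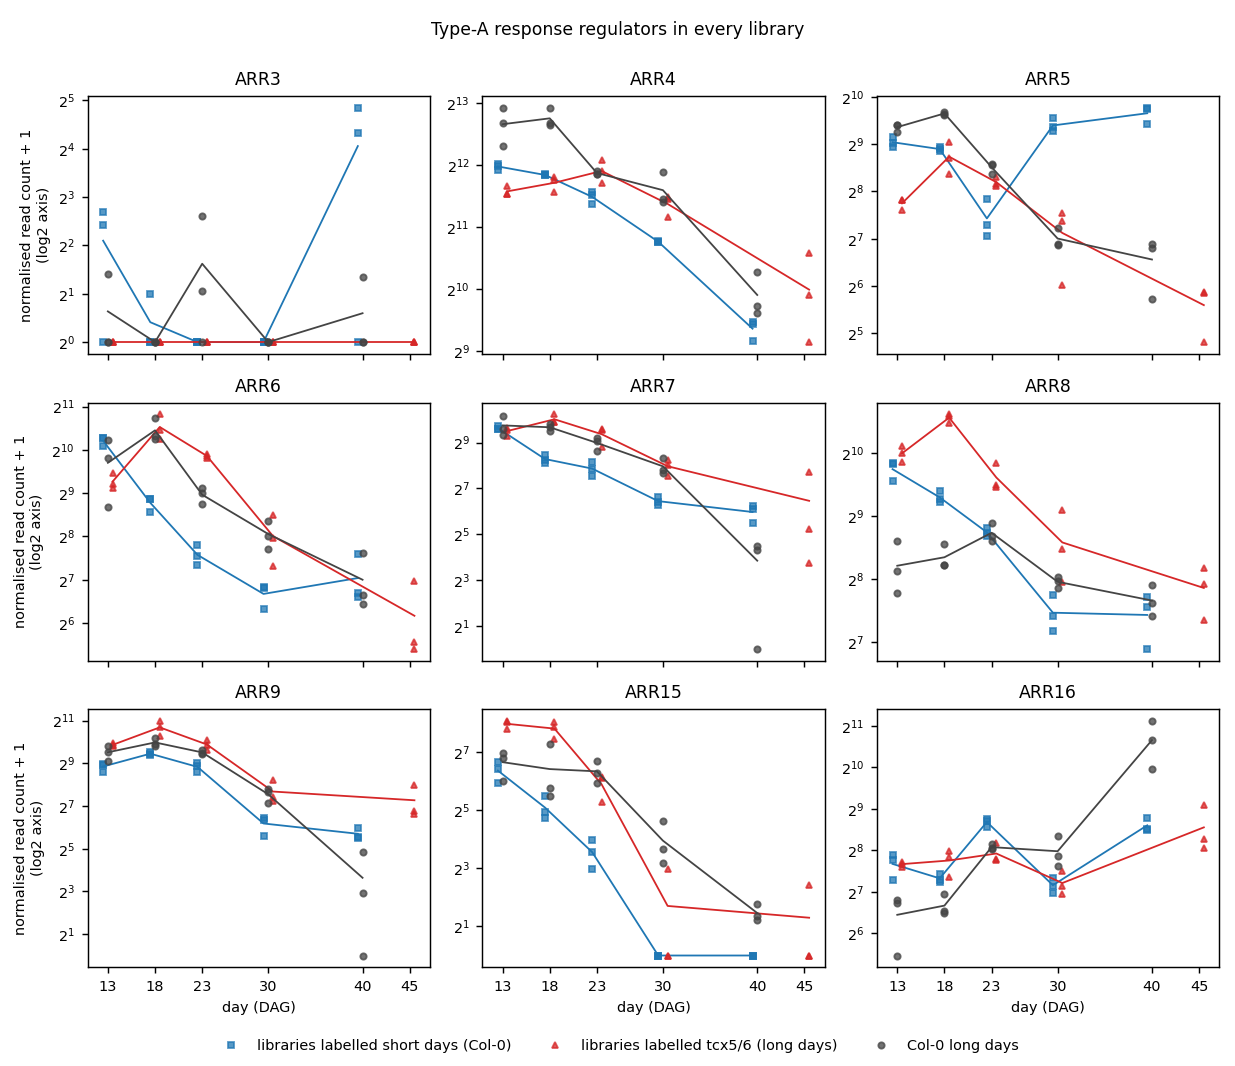
Normalised read count plus 1 (log2 axis) against day for each member, with a point per library, lines through the means of 3 libraries, and symbols for libraries labelled short days, libraries labelled tcx5/6 and Col-0 long days. ARR5 climbs after D23 under short days, ARR16 reaches 990 to 2217 at D40 in Col-0 long days, and ARR3 is at or near 0 apart from 27.9 and 19 in libraries of D40 under short days.

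**Figure D2:**
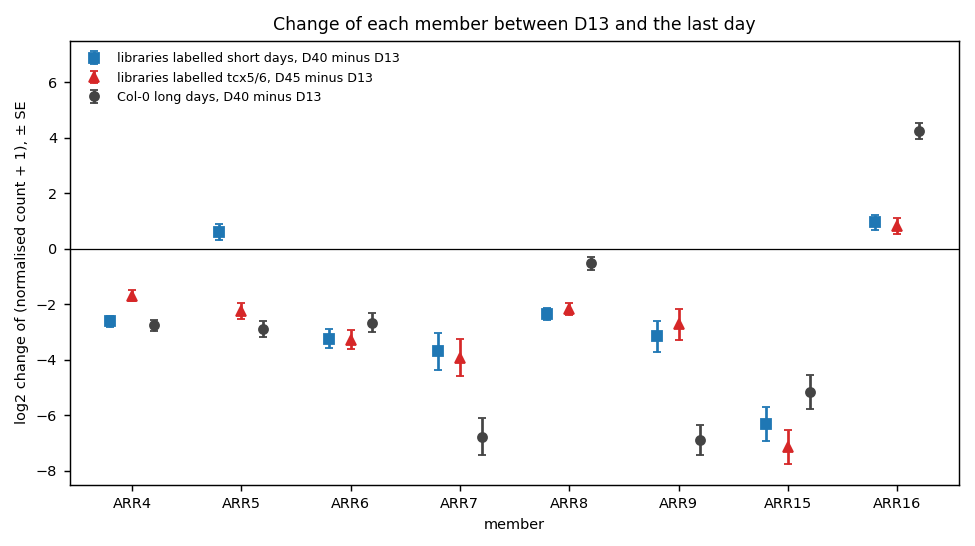
Log2 change (± SE, limma) between D13 and the last day for the 8 members tested, with the last day at D40, or at D45 in tcx5/6. All values lie below 0 apart from ARR16 in each series and ARR5 under short days.

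ARR5 and ARR6 are a closely related pair (82.1% identity of aligned coding bases), and their promoters are common reporters of cytokinin response. Under short days ARR5 had 567, 519 and 492 reads at D13, 476, 463 and 488 at D18, 132, 155 and 227 at D23, 746, 619 and 654 at D30, and 856, 875 and 684 at D40. The level dropped up to D23 and was above its D13 level at D30 and D40 in every library. In libraries labelled tcx5/6 it had 224, 225 and 193 reads at D13, 328, 420 and 528 at D18, 276, 315 and 286 at D23, 63.8, 187 and 164 at D30, and 58, 27.1 and 56.9 at D45. The Col-0 long-day libraries had 612, 681 and 677 at D13, 825, 801 and 783 at D18, 331, 378 and 384 at D23, 148, 116 and 118 at D30, and 111, 52.1 and 117 at D40. Both long-day series ended with every library below its own D13 range. Under short days ARR5 fell 2.78-fold at D23 relative to D18 (log2 change -1.51 ± 0.29 SE, limma adjusted p = 8.8e-05) and then rose 3.93-fold at D30 relative to D23 (limma adjusted p = 1.0e-06), at steps where 29.9% and 25.5% of all genes were called. The first of these calls was lost with each short-day group as 1 library (0.17). The D40 level of ARR5, 805 ± 105, was 1.53 times the D13 level of 526 ± 38.1, which missed the threshold (log2 0.61 ± 0.29, limma adjusted p = 0.057). That p passed with a pseudocount of 5 (0.047), with only those groups fitted (0.0059), with edgeR on recovered reads (0.028) and without D40 replicate 3 (0.047), and the libraries of the 2 days did not overlap. Between D13 and the last day ARR5 fell 4.52-fold in tcx5/6 (47.3 ± 17.5 at D45, against 214 ± 18.3 at D13). It fell 7.05-fold in Col-0 long days (93.1 ± 35.7 at D40, against 656 ± 38.8 at D13).

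ARR6 fell in all 3 series without a later climb like that of ARR5. Under short days it had 193, 96.8 and 102 reads at D40, against 1232, 1232 and 1088 at D13. In libraries labelled tcx5/6 it had 46.4, 41.4 and 125 reads at D45, against 551, 589 and 706 at D13. Col-0 long days had 197, 85.4 and 98.8 reads at D40, against 408, 896 and 1189.8 at D13. Between those days it had 466, 380 and 467 at D18, 186, 223 and 160 at D23 and 113, 111 and 79.3 at D30 under short days. The values were 1208, 1809 and 1409.7, then 934, 956 and 893, then 250, 159 and 361 on those days in tcx5/6, and 1697, 1273 and 1226, then 429, 515 and 551, then 209, 329 and 258 in Col-0 long days. Under short days ARR6 was already 2.71-fold lower at D18 than at D13 (log2 change -1.44 ± 0.34, limma adjusted p = 0.0013, with 31.3% of all genes called), a call that was lost with each short-day group as 1 library (0.27). In each series the last day and D13 did not overlap, and the falls were 9.08-fold, 8.68-fold and 6.54-fold in the order just given (limma adjusted p at most 1.6e-08). In tcx5/6 the fall was 14-fold without D45 replicate 3. In tcx5/6 ARR6 first rose 2.4-fold at D18 relative to D13 (1475 ± 306, against 615 ± 81.2, limma adjusted p = 0.0039, with 39.5% of all genes called). A gene on the opposite strand, AT5G62910, overlaps 348 exon bases of ARR6 (23.9% of its exon length), and the libraries were non-stranded. Even coverage of that gene would give as many reads as 79% of the ARR6 level at D40 under short days, 119% at D45 in tcx5/6 and 105% at D40 in Col-0 long days, so the late ARR6 values cannot be told apart from reads of the partner. At D13 the share was 9.84%, 15.1% and 21.3% in those series. It was 47.6%, 10.8% and 23.1% at D23 and 65.6%, 44.1% and 47.7% at D30. The ARR6 differences between series on those days may therefore include reads of the partner, whose part was not tested.

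ARR7 and ARR15 (79% identity of aligned coding bases) are known from the shoot meristem, where the stem cell regulator WUSCHEL represses them. Both were transcribed in these leaves, where WUS was at 0. Under short days ARR7 had 74.3, 67.3 and 43.3 reads at D40, against 838, 775 and 763 at D13. The tcx5/6 libraries had 12.4, 36.1 and 212 reads at D45, against 624, 790 and 757 at D13. Col-0 long days had 0, 18.7 and 21.4 reads at D40, against 646, 777 and 1152 at D13. At D18, D23 and D30 it averaged 310 ± 39.2, 232 ± 50.6 and 86 ± 11.1 under short days, 1033 ± 146, 658 ± 181 and 249 ± 59.2 in tcx5/6, and 811 ± 80.3, 505 ± 98.1 and 248 ± 61.9 in Col-0 long days. All libraries of the last day lay below all libraries of D13 in each series, and of the 3 last days D45 in tcx5/6 had the widest spread. The falls were 12.8-fold under short days, 8.32-fold in tcx5/6 and 64.2-fold in Col-0 long days (limma adjusted p = 9.1e-06, 4.0e-06 and 3.9e-11). In reads most of the long-day fall came before D30, from 858 ± 263 at D13 to 248 ± 61.9 at D30. As a fold most of it came late: ARR7 averaged 13.4 ± 11.7 at D40, against 248 ± 61.9 at D30 (18.6-fold lower, or 12.4-fold without D40 replicate 1, limma adjusted p = 8.7e-08, with 52.7% of all genes called). Without D40 replicate 1, the library at 0, the log2 change between D13 and D40 in Col-0 long days was -5.31, against -6.78 ± 0.67 with it. In tcx5/6 it was -3.02 without D45 replicate 1 and -5.02 without D45 replicate 3 (29.8-fold lower), against -3.93 ± 0.67 with all 3.

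ARR15 was the least abundant member tested, and it was the first to reach 0. Under short days it had 98.8, 60.4 and 83.6 reads at D13, 43.6, 25.5 and 29.7 at D18, 10.7, 6.9 and 14.6 at D23, and 0 in all 3 libraries at D30 and at D40. In tcx5/6 it had 266, 260 and 219 reads at D13, 262, 232 and 171 at D18, 37.3, 69.3 and 67.4 at D23, 6.77, 0 and 0 at D30, and 0, 0 and 4.38 at D45. The Col-0 long-day libraries had 63.3, 110 and 124 reads at D13, 53.5, 154 and 44.2 at D18, 77.1, 60.1 and 101 at D23, 11.5, 23.8 and 7.99 at D30, and 1.54, 1.33 and 2.38 at D40. The level was at or near 0 by D30 in both series compared with Col-0 long days, where every library still held reads. Under short days the D40 level was at least 95.6-fold lower than at D13, taking 3 reads over the group as the floor. The fall was 56.6-fold in Col-0 long days (limma adjusted p = 2.9e-09). In tcx5/6 all reads of D45 (4 in number) came from replicate 3, without which the group was at 0, so no exact fold is given (limma adjusted p = 1.6e-12).

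ARR4, which is known to bind the photoreceptor phytochrome B and to stabilise its active form, was the most abundant member. Under short days it had 4086, 4142 and 3906 reads at D13, 3656, 3722 and 3656 at D18, 2663, 2926 and 3047 at D23, 1738, 1745 and 1749 at D30, and 574, 694 and 709 at D40. The tcx5/6 libraries had 567, 959 and 1534 reads at D45, against 2967, 3236 and 2983 at D13. Col-0 long days had 786, 850 and 1247 reads at D40, against 5093, 6566 and 7798 at D13. At D18, D23 and D30 Col-0 long days averaged 6926 ± 770, 3759 ± 84.7 and 3102 ± 591. No library of a last day reached the D13 range of its series. ARR4 fell 6.14-fold under short days, 3-fold in tcx5/6 and 6.75-fold in Col-0 long days (limma adjusted p = 6.0e-14, 2.4e-09 and 8.9e-15). In tcx5/6 the mean was 3062 ± 151 at D13, 3370.4 ± 289 at D18 and 3845 ± 491 at D23, and the largest step down came at D45 relative to D30 (1020.0 ± 486, against 2660.3 ± 326, log2 change -1.49 ± 0.20, limma adjusted p = 6.7e-07, with 23.1% of all genes called), a call that was lost with only those groups fitted (0.09).

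ARR8 and ARR9 (81.3% identity of aligned coding bases) are counted among the type-A genes that respond least to added cytokinin. Under short days ARR8 had 916, 749 and 906 reads at D13, 594, 616 and 674 at D18, 409, 448 and 425 at D23, 215, 143 and 170 at D30, and 188, 209 and 118 at D40. In tcx5/6 it had 930, 1026 and 1103 reads at D13, 1430.2, 1568 and 1535 at D18, 719, 920 and 707 at D23, 246, 354 and 547 at D30, and 163, 288 and 243 at D45. The Col-0 long-day libraries had 279, 218 and 390 reads at D13, 298, 377 and 299 at D18, 389, 412 and 475 at D23, 251, 262 and 230 at D30, and 195, 240 and 169 at D40. The 3 series ended close together, and they differed in where they began. ARR8 fell 4.99-fold under short days and 4.41-fold in tcx5/6 (limma adjusted p = 2.8e-11 and 2.1e-10). In Col-0 long days it fell 1.47-fold with overlapping libraries (log2 change -0.52 ± 0.23, limma adjusted p = 0.04). That call was lost under quantile normalisation (0.2), TMM (0.066), the fit of only those groups (0.15) and edgeR (0.056). It was also lost without D13 replicate 1 (0.061), D13 replicate 3 (log2 change -0.30, 0.28), D40 replicate 1 (0.079) or D40 replicate 3 (0.15). A short gene on the opposite strand, AT2G09250, overlaps 299 exon bases of ARR8 (12.6% of its exon length) and averaged 33 reads, which could supply 1.73 to 25.6% of the ARR8 level by group.

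ARR9 fell most in Col-0 long days. Under short days it had 46.5, 61.7 and 44.7 reads at D40, against 503, 391 and 487 at D13. The tcx5/6 libraries had 97.4, 108 and 254 reads at D45, against 884, 919 and 984 at D13. Col-0 long days had 27.7, 6.67 and 0 reads at D40, against 557, 743 and 891 at D13. At D18, D23 and D30 it averaged 699 ± 31.8, 454 ± 68.8 and 71.6 ± 20.8 under short days, 1641 ± 395, 940 ± 155 and 204 ± 79.4 in tcx5/6, and 1006 ± 128, 727 ± 53 and 186 ± 42.8 in Col-0 long days. The last day lay below D13 in every library of each series. The falls were 9.03-fold under short days, 6.06-fold in tcx5/6 and 63.8-fold in Col-0 long days (limma adjusted p = 4.1e-06, 4.3e-05 and 1.2e-13). In Col-0 long days the log2 change was -5.60 without D40 replicate 3, the library at 0, and -8.02 without D40 replicate 1, against -6.89 ± 0.55 with all 3, and the fold without replicate 1 was 219.

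ARR16, linked in other work to divisions of the stomatal lineage, was the one member that rose with age in every series. Under short days it had 154, 237 and 217 reads at D13, 150, 172 and 155 at D18, 431, 417 and 379 at D23, 160, 125 and 140 at D30, and 358, 439 and 364 at D40. In tcx5/6 it had 204, 209 and 193 reads at D13, 253, 164 and 227 at D18, 215, 288 and 221 at D23, 139, 123 and 179 at D30, and 546, 310 and 266 at D45. The Col-0 long-day libraries had 43.1, 110 and 105 reads at D13, 122, 88 and 91.5 at D18, 265, 260 and 281 at D23, 197, 324 and 231 at D30, and 2217, 1621 and 990 at D40. The long-day D40 libraries stood above every other library of the 45, and the 2 other series ended within the range of 266 to 546. ARR16 rose 18.7-fold in Col-0 long days (1609 ± 614 at D40, against 86.1 ± 37.3 at D13, log2 change 4.25 ± 0.28, limma adjusted p = 1.2e-15), and 6.42-fold of that came at D40 relative to D30. It rose 1.91-fold under short days (limma adjusted p = 0.0035, and 0.19 with each short-day group as 1 library). The rise was 1.85-fold in tcx5/6 (limma adjusted p = 0.012), and the call was lost with only those groups fitted (0.054) and without D45 replicate 1 (log2 change 0.51, 0.14). Under short days the course was not monotonic: ARR16 rose 2.57-fold at D23 relative to D18, fell 2.89-fold at D30 relative to D23 and rose 2.73-fold at D40 relative to D30 (limma adjusted p at most 3.1e-04, with 38.3% of all genes called at the last step). With each short-day group as 1 library these 3 calls were lost (0.22, 0.16 and 0.15).

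Ranked over the 15 groups, 4 members peaked at D18 in tcx5/6, namely ARR6 (1475 ± 306), ARR7 (1033 ± 146), ARR8 (1511 ± 71.8) and ARR9 (1641 ± 395). For ARR8 and ARR9 that group lay above the next without overlap, while ARR6 and ARR7 overlapped the next group. For each of these 4 members the highest library of the group was replicate 2 (1809, 1202, 1568 and 2019.9). In that library 37% of genes with a mean of 20 to 50 in the other libraries were at 0. ARR6 was at 1208 and 1409.7 in replicates 1 and 3, beside a mean of 1399 at D18 in Col-0 long days. ARR15 peaked at D13 in tcx5/6 (248 ± 25.1), ARR4 at D18 in Col-0 long days (6926 ± 770), and ARR5 at D40 under short days (805 ± 105) with D18 of Col-0 long days beside it (803 ± 21). ARR16 peaked at D40 in Col-0 long days (1609 ± 614), far above the next group, D23 under short days (409 ± 26.9). Most neighbours in these orders overlapped: 9 of 14 pairs for ARR4, ARR5 and ARR9, 10 for ARR8, and 11 for ARR6, ARR7, ARR15 and ARR16. The lowest groups were D40 under short days for ARR4, ARR8 and, level with D30 at 0, ARR15, D45 in tcx5/6 for ARR5 and ARR6, D40 in Col-0 long days for ARR7 and ARR9, and D13 in Col-0 long days for ARR16.

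Set against exon length, the make-up of the family turned over with age. The summed level of the 9 members per kb of exon was 4721 ± 158 at D13 and 1322 ± 116 at D40 under short days. It was 4043 ± 205 at D13 and 1019 ± 379 at D45 in tcx5/6, and 5667 ± 1358 at D13 and 1492 ± 231 at D40 in Col-0 long days. At D13 ARR4 held 40.8 ± 1.16%, 36.1 ± 1.42% and 54.8 ± 1.75% of that sum in those series, and it was the largest member in each. At D40 under short days ARR5 held 41.9 ± 1.9%, ARR4 24 ± 4.27% and ARR16 14.1 ± 1.37%. At D45 in tcx5/6 ARR4 held 46.5 ± 8.63% and ARR16 20.5 ± 13.7%. At D40 in Col-0 long days ARR16 held 50.9 ± 13%, where it had held 0.712 ± 0.225% at D13, and ARR4 held 31.8 ± 12.2%. By mean share, the leading member of the oldest leaves was ARR5 under short days, ARR4 in tcx5/6 and ARR16 in Col-0 long days. ARR5 led in all 3 short-day libraries (39.7 to 43%, against 19.9 to 28.4% for ARR4). In Col-0 long days the ranges of ARR16 (36.3 to 60.9%) and ARR4 (21.4 to 45.2%) overlapped, and ARR4 led in replicate 3. In tcx5/6 ARR4 held 36.6 to 52.5% and ARR16 8.84 to 35.6%, and they were close in replicate 1.

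**Figure D3:**
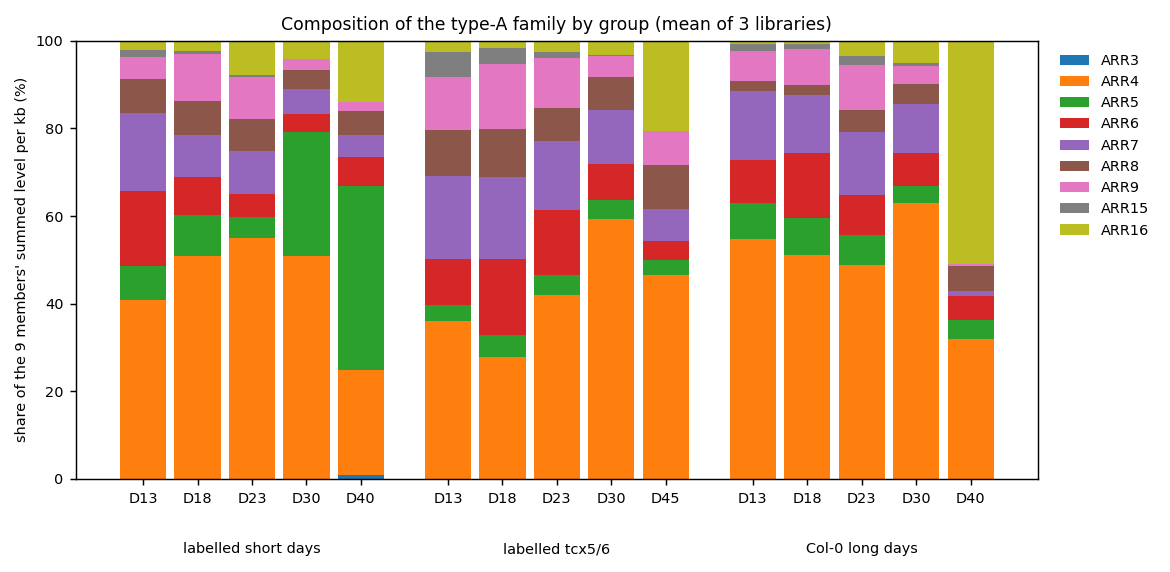
Share of each member in the summed level per kb of exon (percent, mean of 3 libraries) by day for libraries labelled short days, libraries labelled tcx5/6 and Col-0 long days. ARR5 makes up 41.9% at D40 under short days and ARR16 50.9% at D40 in Col-0 long days.

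Short days were compared with long days at each matched day to ask which members differed with day length and when. At D13 ARR8 was 2.9-fold higher (857 ± 93.4 under short days, against 296 ± 87.4 in Col-0 long days, log2 1.57 ± 0.23, limma adjusted p = 8.2e-07). ARR16 was 2.35-fold higher (203 ± 43.3, against 86.1 ± 37.3, limma adjusted p = 2.8e-04) and ARR4 was 1.6-fold lower (4045 ± 123, against 6486 ± 1354, limma adjusted p = 0.0073). These 3 of 8 calls stood beside 40.0% of all genes called in either direction. Under quantile normalisation ARR6 (log2 0.80, adjusted p = 0.049) took the place of ARR4 (log2 -0.20, adjusted p = 0.5), which made 3 higher and 0 lower. Without Col-0 long-day D13 replicate 3 the limma adjusted p was 0.061 for ARR4 and 0.039 for ARR6, and with only those groups fitted it was 0.054 for ARR16. With each short-day group as 1 library ARR4 was at 0.18.

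At D18, 4 of 8 members were called (29.7% of all genes): ARR8 was higher, and ARR4, ARR5 and ARR6 were lower. ARR6 differed most, with 438 ± 50.2 under short days and 1399 ± 259 in Col-0 long days (3.2-fold lower, log2 -1.67 ± 0.34, limma adjusted p = 2.9e-04). ARR5 was at 476 ± 12.5 under short days and 803 ± 21 in Col-0 long days (limma adjusted p = 0.043), and its p lay between 0.081 and 0.099 when any 1 of the 6 libraries was left out. ARR7 (310 ± 39.2, against 811 ± 80.3) was not called with all groups fitted. It passed limma with a pseudocount of 5 (adjusted p = 0.03) and with only those groups fitted (0.0016), and it passed edgeR (0.021). At D23, 3 of 8 were lower (19.5% of all genes were lower and 37.6% were called in either direction): ARR5, ARR6 and ARR15. ARR15 was at 10.7 ± 3.84 under short days and 79.3 ± 20.4 in Col-0 long days, 7.4-fold lower (log2 -2.80 ± 0.61, limma adjusted p = 4.1e-04). With only the 2 groups of a day fitted 7 members were called at D18 and at D23. In those fits 3892 of 23493 genes were higher and 3833 lower at D18, and 6457 were higher and 6789 lower at D23. With each short-day group as 1 library none was called at either day by limma, where 3 had an unadjusted p under 0.05 on each day, and edgeR on all 3 libraries called 5 at D18 and 4 at D23.

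At D30 the direction of ARR5 turned. It was 5.28-fold higher under short days, at 673 ± 65.4, against 127 ± 17.9 in Col-0 long days (log2 2.40 ± 0.29, limma adjusted p = 2.6e-08), while ARR4, ARR6, ARR9, ARR15 and ARR16 were lower. These 6 of 8 calls stood beside 36.6% of all genes. With each short-day group as 1 library the calls of ARR4 (log2 -0.81), ARR6 (-1.36), ARR9 (-1.34) and ARR16 (-0.79) were lost. ARR9 (71.6 ± 20.8, against 186 ± 42.8, limma adjusted p = 0.044) lost its call without any 1 of 5 libraries, namely long-day replicate 2 (0.11) or 3 (0.13) or short-day replicate 1 (0.17), 2 (0.054) or 3 (0.065). ARR16 (142 ± 17.5, against 251 ± 65.9, limma adjusted p = 0.026) lost its call without long-day replicate 2 (0.16) or short-day replicate 2 (0.093) or 3 (0.06). ARR8 (176 ± 36.1, against 248 ± 16.4) gained one without short-day replicate 1 (0.043) and under quantile normalisation (0.011). ARR7 (86 ± 11.1, against 248 ± 61.9) was not called with all groups fitted. It was called lower by limma under quantile normalisation (adjusted p = 0.041), a pseudocount of 5 (0.018) and the fit of only those groups (0.0029). ARR7 was also called lower by edgeR (adjusted p = 0.0086).

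At D40 ARR5 was 8.64-fold higher under short days (805 ± 105, against 93.1 ± 35.7 in Col-0 long days, log2 3.18 ± 0.29, limma adjusted p = 2.5e-11). ARR7 was at 61.7 ± 16.3 under short days and 13.4 ± 11.7 in Col-0 long days, and ARR9 was at 50.9 ± 9.36 and 11.5 ± 14.5 in the same groups, both higher (limma adjusted p = 3.0e-04 and 1.3e-05). ARR16 was 4.16-fold lower (387 ± 45.1, against 1609 ± 614, log2 -1.98 ± 0.28, limma adjusted p = 3.9e-07). ARR4 was also lower (659 ± 74.2, against 961 ± 250, limma adjusted p = 0.028), as was ARR15, whose 3 short-day libraries were at 0 and whose long-day libraries held 4 reads in all (limma adjusted p = 0.049). These 6 of 8 calls stood beside 50.3% of all genes. The size of both increases rests on long-day libraries at 0: the log2 difference of ARR7 was 1.54 without long-day replicate 1, and that of ARR9 was 3.09 with all libraries and 1.79 without long-day replicate 3. By group means ARR9 was 4.45-fold higher, or 15.3-fold without long-day replicate 1. With only those 2 groups fitted their adjusted p was 0.16 and 0.14. With each short-day group as 1 library the calls of ARR4 (0.26) and ARR15 (0.29) were lost. ARR4 also lost its call without long-day replicate 3 (log2 -0.32, 0.22) or short-day replicate 1 (0.12), and ARR15 lost its call without any 1 of the 6 libraries (0.064 to 0.12).

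The change between D13 and D40 was then compared between day lengths in 1 fit. The change differed for 5 of 8 members, against 45.8% of all genes. It was higher under short days for ARR5 (log2 difference 3.49 ± 0.40, limma adjusted p = 8.1e-09), ARR9 (3.74 ± 0.77, 1.4e-04) and ARR7 (3.08 ± 0.95, 0.008). It was lower for ARR16 (-3.30 ± 0.40, 2.2e-08) and ARR8 (-1.82 ± 0.32, 1.7e-05). The ARR7 difference was 1.61 (0.055) without long-day D40 replicate 1 and had an adjusted p of 0.17 with each short-day group as 1 library, and the ARR9 difference was 2.44 (1.2e-04) without long-day D40 replicate 3. ARR4, ARR6 and ARR15 changed by amounts whose difference did not pass the test (0.14 ± 0.28, -0.58 ± 0.49 and -1.18 ± 0.87).

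**Figure D4:**
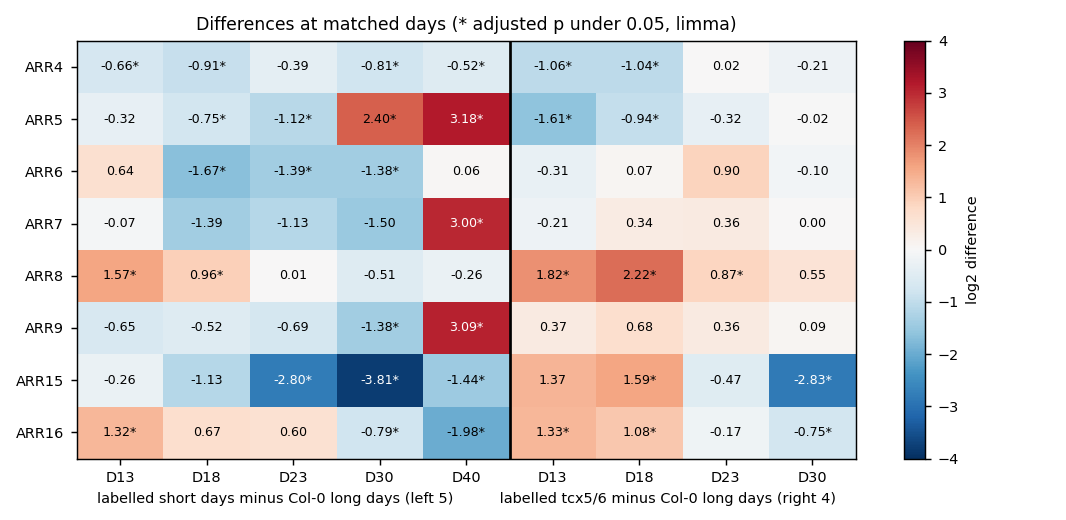
Log2 difference of each member at matched days, libraries labelled short days minus Col-0 long days (left 5 columns) and libraries labelled tcx5/6 minus Col-0 long days (right 4 columns), with asterisks for limma adjusted p under 0.05. ARR5 turns from -1.12 at D23 to 2.40 at D30 and 3.18 at D40 in the left block, and ARR8 is highest at D18 (2.22) in the right block.

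The line labelled tcx5/6 was compared with Col-0 under long days at D13, D18, D23 and D30. Averaged over those days, 4 of 8 members were called, against 58.8% of all genes. ARR8 was higher (log2 1.37 ± 0.11, limma adjusted p = 7.4e-13) and so was ARR16 (0.37 ± 0.14, 0.023, and 0.072 without Col-0 D13 replicate 1). ARR4 was lower (-0.57 ± 0.10, 5.7e-06), as was ARR5 (-0.72 ± 0.14, 4.2e-05). The remaining members lay between -0.08 and 0.38 on the log2 scale and were not called. ARR9 was called as well with edgeR (0.028) and with only those groups fitted (0.01).

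At D13, 4 of 8 members were called (43.5% of all genes). ARR8 was 3.45-fold higher (1019.5 ± 87 in tcx5/6, against 296 ± 87.4 in Col-0, limma adjusted p = 2.7e-08) and ARR16 was 2.34-fold higher (202 ± 8.09, against 86.1 ± 37.3, 1.9e-04). ARR4 was 2.12-fold lower (3062 ± 151, against 6486 ± 1354, 3.2e-05) and ARR5 was 3.07-fold lower (214 ± 18.3, against 656 ± 38.8, 1.4e-05). ARR15 was at 248 ± 25.1 in tcx5/6 and 99.1 ± 31.8 in Col-0 and was not called with all groups fitted. It passed limma with a pseudocount of 5 (adjusted p = 0.005) and with only those groups fitted (0.014). In the same libraries the root marker SCR, also known from the leaf bundle sheath, was at 1269 ± 44.5 in tcx5/6 and 513 ± 69.8 in Col-0, and its part in these differences was not tested. At D18 the same 4 members were called in the same directions, with ARR8 at 1511 ± 71.8 in tcx5/6 and 325 ± 45.4 in Col-0 (4.65-fold higher, log2 2.22 ± 0.23, limma adjusted p = 3.3e-10), which made 5 of 8 with ARR15 (47.6% of all genes). ARR15 was at 262, 232 and 171 in tcx5/6 and 53.5, 154 and 44.2 in Col-0 (2.64-fold higher, or 4.53-fold without Col-0 replicate 2, limma adjusted p = 0.031). The ARR15 call was lost without tcx5/6 replicate 1 (0.082) or 2 (0.068) or Col-0 replicate 1 (0.11) or 3 (0.15), and with edgeR (0.059).

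By D23 ARR8 alone was called, 1 of 8 against 24.8% of all genes, at 782 ± 120 in tcx5/6 and 426 ± 44.5 in Col-0 (1.84-fold higher, limma adjusted p = 0.0041). ARR6 was at 928 ± 32.1 in tcx5/6 and 498 ± 62.5 in Col-0 and missed the threshold (log2 0.90 ± 0.34, limma adjusted p = 0.051). It passed under quantile normalisation (0.025), TMM (0.035), a pseudocount of 5 (0.042), the fit of only those groups (0.0036) and edgeR (0.029). At D30, 2 of 8 were called (35.1% of all genes), and both were lower (18.5% of all genes). ARR15 was at 6.77, 0 and 0 in tcx5/6 and 11.5, 23.8 and 7.99 in Col-0 (log2 -2.83 ± 0.61, limma adjusted p = 3.5e-04), with all tcx5/6 reads in replicate 1. ARR16 was at 147 ± 29.1 in tcx5/6 and 251 ± 65.9 in Col-0 (1.7-fold lower, limma adjusted p = 0.037), and it lost its call without tcx5/6 replicate 1 (0.093) or 2 (0.13) or Col-0 replicate 2 (0.2) or 3 (0.061). ARR8 gained one without tcx5/6 replicate 1 (log2 0.83, 0.0066) and with edgeR (0.029). With only those 2 groups fitted limma called 0 of 8 at D30, with an unadjusted p under 0.05 for 2, and edgeR called 3. Of 23493 genes that limma fit called 3673 higher and 4183 lower, and edgeR called 4089 higher and 4372 lower.

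The change between D13 and D30 differed between tcx5/6 and Col-0 for 5 of 8 members, against 24.2% of all genes. It was higher in tcx5/6 for ARR5 (log2 difference 1.60 ± 0.40, limma adjusted p = 0.003) and ARR4 (0.85 ± 0.28, 0.024). It was lower for ARR15 (-4.20 ± 0.87, 3.6e-04), ARR16 (-2.08 ± 0.40, 1.4e-04) and ARR8 (-1.27 ± 0.32, 0.0031). For ARR4 the p rose to 0.12 under quantile normalisation, which left 1 higher and 3 lower, and lay at 0.08 without Col-0 D13 replicate 3, 0.058 and 0.065 without Col-0 D30 replicates 1 and 3, and 0.052 and 0.053 without tcx5/6 D30 replicates 1 and 2. No Col-0 library was taken at D45, so the last day of tcx5/6 stands beside D40 of Col-0 as values with no test. ARR16 was at 374 ± 150 in tcx5/6 at D45 and 1609 ± 614 in Col-0 at D40, and ARR9 at 153 ± 87.5 and 11.5 ± 14.5 in the same groups.

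Across the 15 group means, which share libraries and normalisation, 6 members were the most alike and ARR16 ran against them. ARR5 was less like the 6, with no clear gap between its highest r and the lowest r among them. Pearson's r of log2 group means was 0.96 between ARR7 and ARR9 and 0.91 between ARR6 and ARR15, and it was 0.53 to 0.96 among ARR4, ARR6, ARR7, ARR8, ARR9 and ARR15. ARR5 had r of 0.13 to 0.51 with those 6, and ARR16 had a negative r with every other member (-0.24 to -0.74). These values are descriptions with no test. Of 8183 other genes with a symbol and a group mean of 100 or more, the 5 whose profile over the 15 groups was most like the mean profile of the members tested were EXP3 (AT2G37640, r = 0.973), CLE42 (0.969), SAUR68 (0.964), SAUR26 (0.963) and XTH8 (0.961). For single members the closest were FLA16 for ARR9 (0.983), CRR1 for ARR7 (0.981), TAF12 for ARR8 (0.973), CYP86A8 for ARR15 (0.966), TED6 for ARR4 (0.959), CSLA07 for ARR6 (0.947), CSLC04 for ARR5 (0.928) and NTMC2T5.1 for ARR16 (0.9).

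The rest of the cytokinin pathway was read with the same fits, in the order of the relay and as the last day against D13. The counts of these lists stand beside 34.0% of all genes that rose and 36.5% that fell under short days. Those shares were 30.1% and 33.9% in tcx5/6, and 34.0% and 35.8% in Col-0 long days. Of the 3 receptors, AHK3, the receptor with the main part in leaf longevity, rose in each series (6335 ± 300 at D40, against 1773 ± 96.7 at D13 under short days). AHK3 was at 3916 ± 546 at D45, against 1979 ± 118 at D13, in tcx5/6, and at 6289 ± 2524 at D40, against 2812 ± 59.7 at D13, in Col-0 long days. AHK2 and AHK4 fell in each. AHK2 was 19.5-fold lower at D40 in Col-0 long days (limma adjusted p = 4.4e-19). Of 5 phosphotransfer genes tested, 2 rose under short days, 4 in tcx5/6 and 2 in Col-0 long days. AHP5 rose in all 3. Of 7 type-B regulators, which activate the members, 3 rose and 3 fell under short days, 3 rose and 2 fell in tcx5/6, and 2 rose and 1 fell in Col-0 long days. ARR2 rose 6.57-fold, 3.31-fold and 3.65-fold in those series and ARR10 rose in each, while ARR14 fell in each. In Col-0 long days ARR14 was at 21.5, 1.33 and 0 at D40, against 437 ± 52 at D13, which is 57.3-fold lower, or 655-fold without D40 replicate 1. Type-B transcripts moved in both directions with age, as all genes did, where 7 of the 8 type-A members tested fell in Col-0 long days.

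Genes that set the amount of cytokinin also moved in both directions, as all genes did. Of 15 synthesis and activation genes tested, 4 rose and 3 fell under short days, 3 rose and 4 fell in tcx5/6, and 6 rose and 3 fell in Col-0 long days. IPT7, a cytokinin synthase, was at 0 in all D13 libraries of tcx5/6 and Col-0 long days and at 99.9 ± 45.8 at D45 and 44.8 ± 16.9 at D40 in those series. Under short days IPT7 averaged 0.908 ± 1.57 at D13 and 85 ± 13.3 at D30, and it was at 0 in all 3 libraries at D40. Of 10 breakdown and conjugation genes, 6 rose and 4 fell under short days, 2 rose and 3 fell in tcx5/6, and 5 rose and 2 fell in Col-0 long days. CKX5, a cytokinin oxidase, rose 17.1-fold, 4.53-fold and 26.6-fold in those series. CKX2 was at 388 ± 91.2 at D40, against 1.17 ± 2.03 at D13, under short days and at 1113 ± 731 at D40, against 0 in all D13 libraries, in Col-0 long days. In tcx5/6 CKX2 was at 0.76 ± 0.753 at D45 and 1.72 ± 2.97 at D13. Of 5 transport genes, 2 rose under short days, 3 rose in tcx5/6, and 2 rose and 2 fell in Col-0 long days. PUP14, an importer that takes up active cytokinin, rose 19.6-fold under short days (17256 ± 453 at D40, against 882 ± 60.7 at D13). PUP14 fell 13.1-fold in Col-0 long days (1609 ± 164 at D40, against 21138 ± 14278 at D13).

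Of the 6 cytokinin response factors, which share cytokinin targets with the type-B regulators, 1 rose and 5 fell under short days, 1 rose and 4 fell in tcx5/6, and 1 rose and 2 fell in Col-0 long days. The one that rose in each series was CRF6, known as a delayer of leaf senescence (537 ± 113 at D40, against 186 ± 15.5 at D13, under short days). CRF2 and CRF4 fell in each, and under short days CRF2 was at 0, 5.61 and 0 at D40, against 721 ± 92.3 at D13, so that all its D40 reads came from 1 library. Of the 4 KMD F-box genes, whose proteins mark type-B regulators for destruction, 3 rose under short days, 2 rose in tcx5/6, and 1 rose and 1 fell in Col-0 long days. KMD2 rose 15.7-fold, 26.8-fold and 39.4-fold in those series (limma adjusted p at most 1.9e-06).

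**Figure D5:**
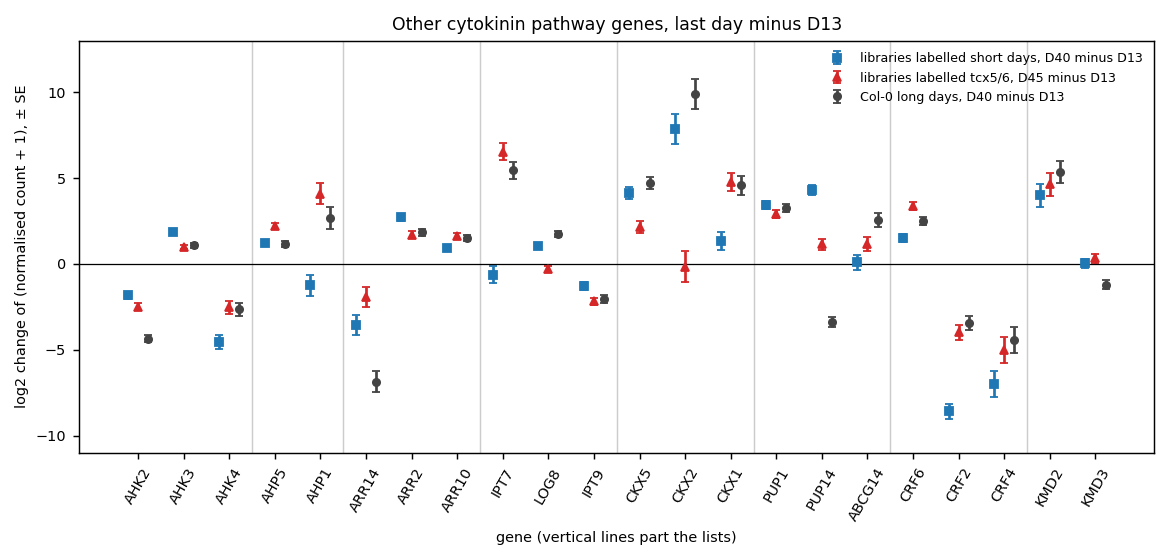
Log2 change (± SE, limma) between D13 and the last day for named genes of the other cytokinin lists, from receptors on the left to KMD genes on the right, with a symbol per series. CKX5, CKX1, PUP1, CRF6 and KMD2 lie above 0 in all 3 series, and PUP14 lies above 0 under short days (4.29) and below 0 in Col-0 long days (-3.40).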

How the data were processed

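The libraries were made from polyadenylated RNA by a non-stranded Illumina protocol, per the labels' protocols. Per the submitters' processing notes, reads were trimmed, aligned, counted and scaled by the authors, and the tools listed are STAR 2.7.1a, DESeq2 1.40.1, HTSeq 2.0, Trim Galore 0.6.6 and cutadapt. The HTSeq strand setting and the genome build are not given in those sources. The deposited values are a signal, namely HTSeq counts over a size factor for each library. Dividing them by the smallest value of the library gave whole numbers (within 0.01), which were taken as reads. Reads in no gene (46.0 to 48.2% of reads) and ambiguous reads (0.111 to 0.238%) were left out. The main test was limma 3.58.1 (R 4.3.3) on log2(value + 1), with 15 groups in 1 fit (30 residual degrees of freedom), a mean-variance trend and Benjamini-Hochberg adjustment over 23493 genes with at least 3 libraries at 10 or more. Folds are ratios of group means. edgeR 4.0.16 ran on the recovered reads, as an alternative. The fit was tested on simulated data drawn with the same setting of spread for every gene and group. The spread of these libraries differed between groups, so that test does not cover it. Members, lists and tests were chosen with earlier results of these data known. Named genes were all members, up to 3 genes of each list called in Col-0 long days by the smallest adjusted p, and the most similar profiles. Same-numbered libraries were not paired: correlations of their deviations were -0.088 to 0.135. Floors cover counting error only.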

Additional observations from a re-analysis of the deposited data

Results flagged for a closer look

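The results here were chosen because the change with age differed between series by a test of the difference itself (limma, all 15 groups in 1 fit). Between D13 and D40 the log2 change under short days minus that in Col-0 long days was 3.49 for ARR5, 3.08 for ARR7 and 3.74 for ARR9, so ARR7 and ARR9 fell less under short days, where the ARR5 change did not pass the test. It was -1.82 for ARR8, which fell further under short days, and -3.30 for ARR16, which rose further in Col-0 long days. Between D13 and D30 the change in tcx5/6 minus that in Col-0 long days was 0.85 for ARR4 and 1.60 for ARR5, which started lower in tcx5/6. It was -1.27 for ARR8 and -2.08 for ARR16, which started higher in tcx5/6, and -4.20 for ARR15, where 2 of the 3 tcx5/6 libraries were at 0 at D30. Groups of 3 libraries were not searched for outlying libraries.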

How the results depend on the processing

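No called member changed direction under any alternative run. The count of members called moved by over 1.5 times as follows. With only the groups compared in the fit, it was 7 at D18 and 7 at D23 for short minus long days (4 and 3 with all groups), 3 at D40 (6 with all groups), 2 at D23 for tcx5/6 minus Col-0 (1 with all groups) and 0 at D30 (2 with all groups). The calls over all genes moved too. At D40 that fit called 3687 of 23493 genes higher and 2187 lower for short minus long days, against 50.3% called with all groups. For tcx5/6 minus Col-0 it called 3358 higher and 4316 lower at D23, and 3673 and 4183 at D30. At D23 for tcx5/6 the count of members called was also 2 under quantile normalisation, TMM, a pseudocount of 5 and edgeR. With each short-day group as 1 library, a choice made after the data were seen in which that library is assumed to vary like the other groups, it was 0 at D18, 0 at D23 and 2 at D30. Leaving out 1 library in turn gave 1 to 2 members for tcx5/6 minus Col-0 at D30. With the replicate block the counts were 8, 7 and 8 for the age changes in Col-0 long days, short days and tcx5/6, where pairing by number had no basis, and no count moved by over 1.5 times. The block ended the calls of ARR9 at D30 (0.051) and ARR15 at D40 (0.056) for short minus long days.

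Values that turned direction were called neither with all groups and libraries nor in the fit that turned them, and the cause was not tested. For short minus long days under quantile normalisation these were ARR7 at D13 (0.05), ARR6 at D40 (-0.41) and the ARR4 difference of the D40 change (-0.42). For tcx5/6 minus Col-0 at D30 they were ARR5 with edgeR (0.11) and ARR7 under quantile normalisation (-0.03), TMM (-0.01) and edgeR (-0.01), and over D13 to D30 ARR15 with a pseudocount of 5 (0.24). Leaving out 1 library gave these log2 ranges for short minus long days: -0.26 to 0.16 for ARR7 at D13, -0.05 to 0.09 for ARR8 at D23, -0.26 to 0.43 for ARR6 at D40 and -0.00 to 0.34 for the ARR4 difference of the D40 change. For tcx5/6 minus Col-0 at D13 they were -0.75 to 0.02 for ARR6 and -0.39 to 0.02 for ARR7, at D18 -0.08 to 0.22 for ARR6, and at D23 -0.06 to 0.12 for ARR4. At D30 they were -0.30 to 0.46 for ARR5, -0.38 to 0.20 for ARR6, -0.15 to 0.20 for ARR7 and -0.21 to 0.29 for ARR9. Over D13 to D30 the range was -0.33 to 0.05 for ARR15, and for the difference of the D30 change it was -0.12 to 0.65 for ARR6 and -0.02 to 0.41 for ARR7.

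Quantile normalisation moved the median log2 change of all genes by -0.11 for the short-day age change, by -0.16, -0.22 and -0.22 for short minus long days at D30, D40 and in the D40 change, and by 0.17 and 0.12 for tcx5/6 minus Col-0 at D18 and over D13 to D30. It moved the share of higher among all called genes by 13.7, 15.4 and 12.3 percentage points at D30, at D40 and in the D40 change of short minus long days. The depth limits ARR3 and late ARR15, whose groups held few reads.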
